A study of Mus musculus with 2 samples.

Results

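Collagen genes were described in RNA sequencing of mouse hindlimb skeletal muscle. The set holds every row of the deposited table that is typed mRNA and whose symbol has the form of a collagen chain gene, Col followed by a type number, the letter a and a chain number. This gave 44 genes out of 44787 gene rows, of which 22669 are typed mRNA. By the type of their protein, 11 are fibrillar collagens, 6 are type IV collagens of basement membranes and 27 are other collagens. The muscle came from mice on the C57BL/6 strain background at postnatal day 30. There was 1 wild-type (WT) library and 1 library of the genotype labelled SRSF1-MKO, where SRSF1 is an RNA-binding protein that takes part in splicing. The labels do not spell out MKO, and they name no promoter or driver line for the allele. The sources used here do not give the number of animals behind each library or their sex.

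Collagens are extracellular matrix proteins whose alpha chains wind around each other into a rope-like helix. Fibrillar collagens assemble into the tensile fibres of the connective tissue around muscle fibres, fascicles and tendon, and are made mostly by fibroblasts. Type IV collagen forms a sheet-like network in the basement membrane that wraps each muscle fibre, capillary and nerve sheath. Other collagens form beaded filaments, decorate the surface of fibrils, sit in basement membrane zones or span the cell membrane.

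Values are FPKM as the authors deposited them, a read count scaled by transcript length and library size. Depth recovered from these values was 23.1 M reads in the WT library and 21.4 M in the SRSF1-MKO library (M for 1000000). Ratios are SRSF1-MKO over WT, and each is followed in brackets by its 95% binomial interval (exact, Clopper-Pearson) from the reads behind it. These intervals cover counting error only. With 1 library per genotype no difference below has a replicate check, and no test between genotypes was made. Differences on a log scale are log2((SRSF1-MKO FPKM + 1)/(WT FPKM + 1)), which understates the ratio of genes at low FPKM. A gene is counted as lower or higher when this value passes 1.5-fold. Counts and medians are taken over genes averaging 1 FPKM or more in the 2 libraries, which 24 of the 44 collagen genes reached. The column of each genotype was taken from the genotype in its name. The submitters' description lines contradict each other on this, and the direction of every difference rests on it. Srsf1, the gene named in the genotype, was at 13.7 FPKM in WT against 6.70 FPKM in SRSF1-MKO, a ratio of 0.489 (0.450 to 0.532).

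Sequence upstream of the start is shown for 3 collagen genes that differ in how they compare between the libraries. Col8a1 was higher in SRSF1-MKO, Col15a1 was lower, and Col3a1 was abundant and closer to its WT level. The sequences are the 250 bases before the RefSeq start on GRCm38.p6, written 5′ to 3′ on the strand of the gene. Capitals mark 3 motifs searched on both strands. These are the TATA-box letters TATAAA, the letters of a CAAT box (CCAAT) and those of a GC box (GGGCGG), and no marked letters belong to more than 1 match. Col3a1 (chr1:45311288-45311537, plus strand) has TATAAA with its first base 117 bases before the start. Col8a1 (chr16:57754738-57754987, minus strand) has GGGCGG 4 times, each on the other strand and so printed as CCGCCC, with first bases 170, 73, 66 and 23 bases before the start. Col15a1 (chr4:47207762-47208011, plus strand) has none of these letters in this window, and the deposited table places the start of this gene upstream of the window, at 47207633.
Col3a1: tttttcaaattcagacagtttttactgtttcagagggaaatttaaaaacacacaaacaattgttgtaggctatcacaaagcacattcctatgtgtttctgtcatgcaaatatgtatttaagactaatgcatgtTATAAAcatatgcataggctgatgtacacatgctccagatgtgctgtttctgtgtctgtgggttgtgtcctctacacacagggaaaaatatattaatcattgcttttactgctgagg
Col8a1: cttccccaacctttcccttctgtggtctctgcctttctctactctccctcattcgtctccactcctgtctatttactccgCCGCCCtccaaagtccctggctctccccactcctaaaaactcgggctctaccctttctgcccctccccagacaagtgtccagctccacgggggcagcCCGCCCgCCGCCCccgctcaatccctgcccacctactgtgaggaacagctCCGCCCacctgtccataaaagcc
Col15a1: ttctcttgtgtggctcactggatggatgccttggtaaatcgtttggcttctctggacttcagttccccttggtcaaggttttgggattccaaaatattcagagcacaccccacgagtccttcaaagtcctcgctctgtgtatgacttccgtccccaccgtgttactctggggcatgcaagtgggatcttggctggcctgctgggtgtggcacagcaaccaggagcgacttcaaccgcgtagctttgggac
Among the 35 collagen genes with a promoter in the RefSeq table, 21 (60.0%) had GGGCGG in these 250 bases, against 32.9% of 27025 genes. CCAAT was found in 12 collagen genes (34.3%) against 34.5%, and TATAAA in 5 (14.3%) against 13%. A match of letters is a description and not evidence of binding.

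A second stretch is shown because it ties the 2 main basement membrane chains to each other. Col4a1 and Col4a2 lie head to head on chromosome 8, and their first exons share 22 bases on opposite strands (chr8:11312805-11312826). On the plus strand, with GGGCGG in capitals, these bases read as follows.
Col4a1 and Col4a2: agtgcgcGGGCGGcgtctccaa

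Most collagen transcripts of the muscle were lower in SRSF1-MKO. Of the 24 collagen genes averaging 1 FPKM or more, 10 (41.7%) were at least 1.5-fold lower, where 8.28% of 9468 mRNA genes were. In the other direction 1 of 24 was at least 1.5-fold higher, against 22.3% of mRNA genes. The median log2 difference was -0.53 for the collagen genes and 0.19 for the mRNA genes, and 20 of the 24 collagen genes were below 0. Summed over all 44 genes, collagen FPKM was 827 in WT and 495 in SRSF1-MKO, 1.67-fold lower. At 2-fold, 4 of 24 were lower and 1 higher, where the shares of mRNA genes were 3.02% and 8.24%.

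These counts depend on how the libraries are scaled, since the whole table was shifted. The median log2 difference was 0.32 over the 4991 rows averaging 5 FPKM or more, and 0.21 over the 10478 rows averaging 1 FPKM or more. With the median of rows at 5 FPKM or more set to 0, 18 of 24 collagen genes were lower (18.6% of mRNA genes) and 1 was higher (10.2%). At the filter of 1 FPKM the mRNA genes then had a median of -0.13, not 0, and the collagen genes -0.85. With each column divided by its own sum, 18 of the same 24 genes were lower and 1 was higher. On that scale the filter of 1 admits 30 collagen genes and 10991 mRNA genes, of which 20 collagen genes were lower (17.6% of the mRNA genes) and 3 higher (12.3%). The further genes past 1.5-fold were Col24a1 and Col4a5, lower, and Col19a1 and Col23a1, higher. Rows typed mRNA made up 69.5% of the WT column's FPKM sum and 53.5% of the SRSF1-MKO column's. Dividing each column by the sum of its mRNA rows, chosen after seeing the data, moved the count the other way, to 8 of 24 lower and 1 higher. In bulk tissue, fewer cells that make collagen and less collagen RNA per cell cannot be told apart.

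**Figure D1:**
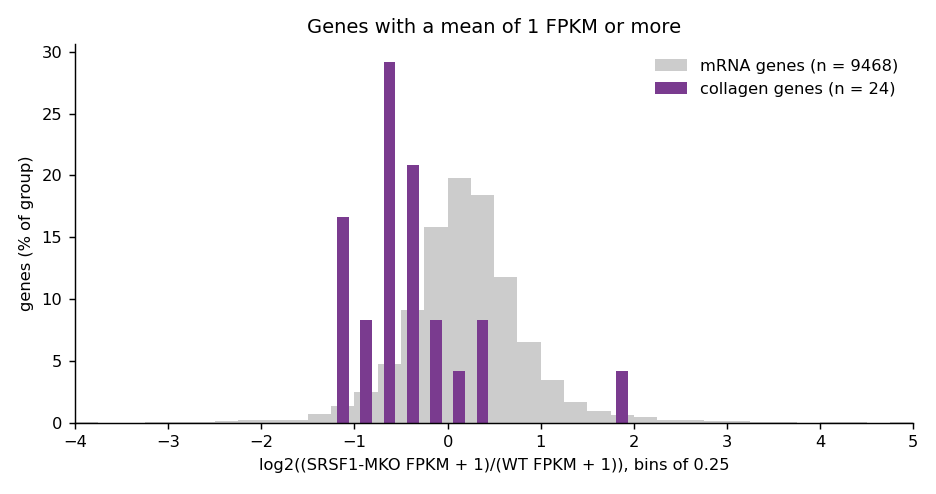
Share of genes (percent of each group) by log2 difference in bins of 0.25, for 9468 mRNA genes in grey and 24 collagen genes in purple, all averaging 1 FPKM or more. Most collagen genes lie left of the peak of the mRNA genes, with medians of -0.53 and 0.19, and Col8a1 stands alone on the right.

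The most abundant collagen genes were the same in both libraries. Col1a1, Col3a1 and Col1a2 held the first to the third rank in WT and in SRSF1-MKO. Across the 24 collagen genes the Spearman rho between the libraries' levels was 0.878, and across 9468 mRNA genes 0.884, as descriptions over genes of the same libraries. The rank of Col8a1 went from 21 to 8 of 44, that of Col11a2 from 19 to 26 and that of Col15a1 from 8 to 10.

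**Figure D2:**
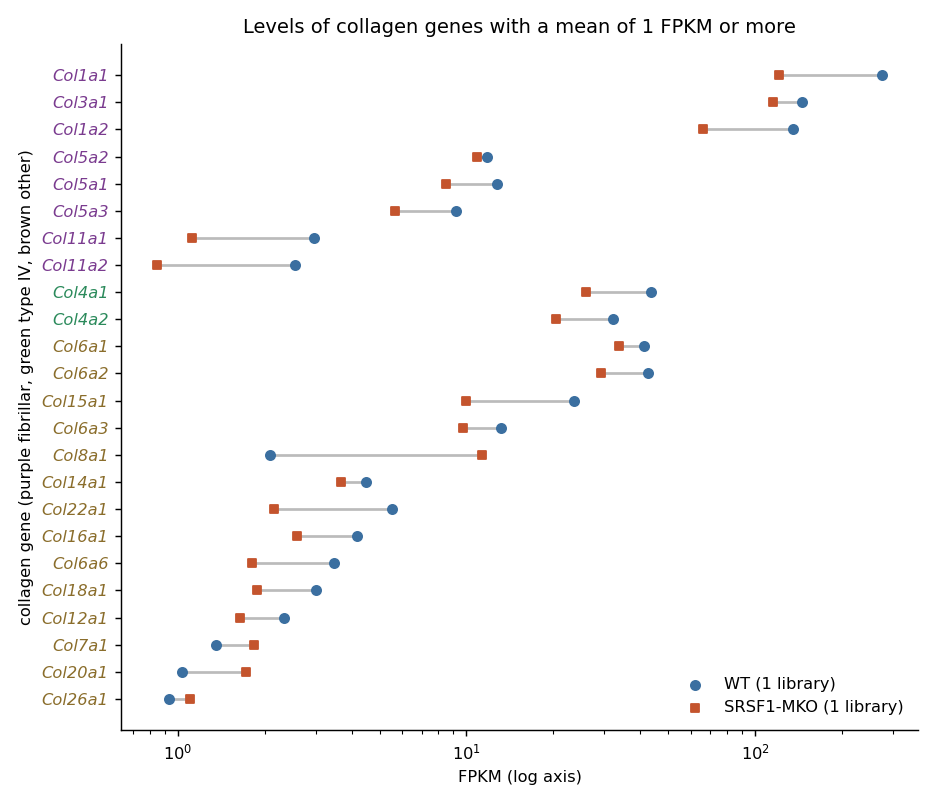
FPKM on a log axis for each of the 24 collagen genes averaging 1 FPKM or more, WT as circles and SRSF1-MKO as squares (1 library each), grouped by class and joined by a line per gene. SRSF1-MKO lies left of WT in 20 genes, and the exceptions are Col8a1, Col7a1, Col20a1 and Col26a1.

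The fibrillar collagens were lower as a class, and by unequal amounts. All 8 averaging 1 FPKM or more were below 0. Of these, 5 (62.5%, against 8.28% of mRNA genes) were at least 1.5-fold lower and 0 were higher (against 22.3%). Their median was -0.76, and their summed FPKM over all 11 genes was 598 in WT against 330 in SRSF1-MKO. With the median of rows at 5 FPKM or more set to 0, the class median was -1.08 and that of mRNA genes -0.13.

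Type I collagen, the main tensile collagen of tendon, fascia and bone, is built from the products of Col1a1 and Col1a2. Col1a1 (chr11:94936224-94953042, plus strand) was at 276 FPKM in WT against 121 FPKM in SRSF1-MKO, from 30035 and 12134 reads. Its ratio was 0.438 (0.429 to 0.447), and its log2 difference of -1.18 was the lowest among the 24 collagen genes. Col1a2 (chr6:4504814-4541544, plus strand) was at 135 FPKM in WT against 65.9 FPKM in SRSF1-MKO, a ratio of 0.488 (0.474 to 0.501). The intervals of the 2 chains did not overlap, and both lay well below those of the other abundant fibrillar gene, Col3a1.

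Type III collagen forms thin, pliable fibrils that mix with type I around muscle fibres and vessels. Its gene Col3a1 (chr1:45311538-45349706, plus strand), whose upstream bases are printed above, was at 145 FPKM in WT against 115 FPKM in SRSF1-MKO. The ratio of 0.793 (0.776 to 0.811) and log2 difference of -0.33 left it within 1.5-fold. The ratio of Col1a1 to Col3a1, a comparison added with the values known, was 1.90 (1.86 to 1.93) in WT and 1.05 (1.02 to 1.07) in SRSF1-MKO. The share of summed collagen FPKM held by Col1a1 was 33.3% in WT against 24.4% in SRSF1-MKO, while that of Col3a1 was 17.6% and 23.3%.

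Type V collagen sits in the core of type I fibrils and limits their width, and its chains did not differ alike. Col5a1 was at 12.7 FPKM in WT against 8.48 in SRSF1-MKO, a ratio of 0.668 (0.626 to 0.712). Col5a2 was at 11.7 and 10.9 FPKM, a ratio of 0.929 (0.867 to 0.995), the closest to 1 of the fibrillar genes that passed the filter. Col5a3 was at 9.20 and 5.67 FPKM, a ratio of 0.617 (0.563 to 0.675). On the log2 scale Col5a3, at -0.61, passed 1.5-fold and Col5a1, at -0.53, lay just outside it. Col5a2 is also the tail-to-tail neighbour of Col3a1 on chromosome 1, with 24614 bases between the annotated ends. These neighbours had the log2 differences nearest to 0 among the 8 fibrillar genes, -0.10 and -0.33.

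Type XI collagen is best known from cartilage fibrils and is present at low level in other tissue, tendon included. Col11a1 was at 2.95 FPKM in WT against 1.12 FPKM in SRSF1-MKO, a ratio of 0.379 (0.317 to 0.450). Col11a2 was at 2.54 and 0.851 FPKM, a ratio of 0.335 (0.266 to 0.420), from 330 and 102 reads. The deposited table places Col11a2 on a scaffold and not on chromosome 17, so its reads may be split with the chromosome copy. By ratio these were the lowest of the 24 genes, with intervals that overlapped each other and those of Col22a1 and Col15a1, given with the other collagens. The interval of Col11a1 also overlapped that of Col1a1 and, at its edge, that of Col6a6.

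The 3 fibrillar genes with a mean under 1 FPKM were Col27a1, Col24a1 and Col2a1. Col24a1 was at 1.15 FPKM in WT against 0.256 FPKM in SRSF1-MKO, a ratio of 0.223 (0.153 to 0.315) from 190 and 39 reads. Col2a1, the main chain of cartilage collagen, was at 0.428 and 0.149 FPKM, from 53 and 17 reads. Col27a1, the member just outside the filter with a mean of 0.915, was at 0.996 and 0.834 FPKM, and its interval of 0.666 to 1.05 included 1. All 11 fibrillar genes were therefore lower in the SRSF1-MKO library in their deposited values, with 10 intervals that lay below 1.

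**Figure D3:**
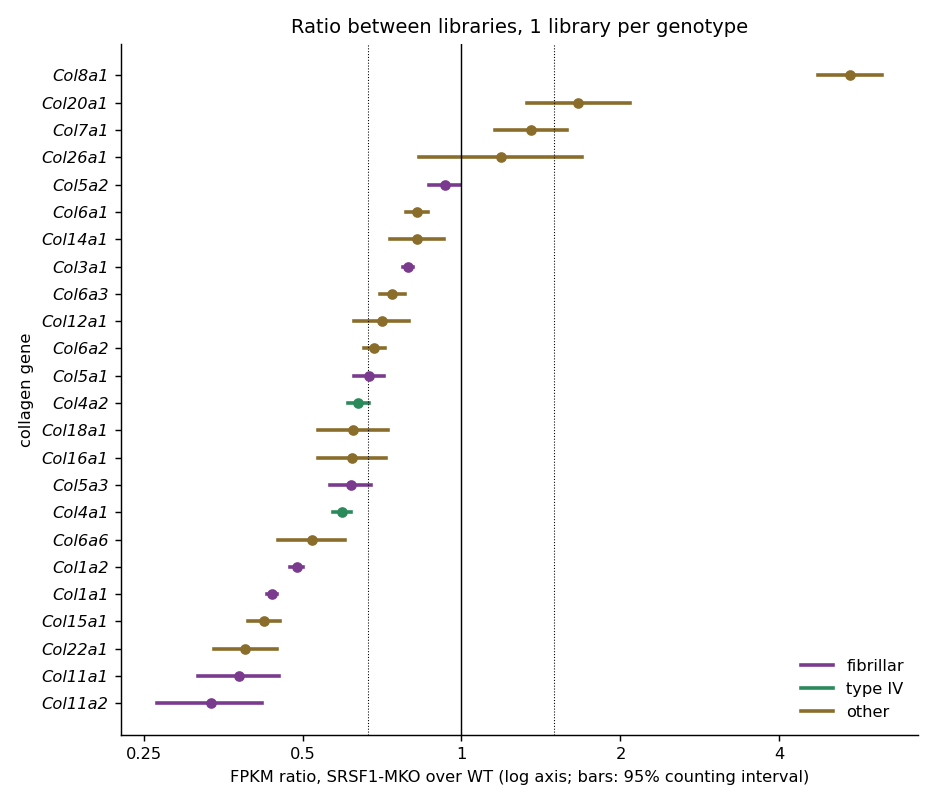
Ratio of FPKM, SRSF1-MKO over WT, on a log axis with exact 95% counting intervals as bars for 24 collagen genes, coloured by class. The solid line marks 1 and the dotted lines 1.5-fold on plain FPKM, which is less strict than the log2(FPKM + 1) rule, so Col16a1, Col18a1 and Col20a1 lie past a dotted line without being counted. Col11a2 is lowest at 0.335 and Col8a1 highest at 5.44.

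The type IV chains of the basement membrane were also lower where they were measured well. Of 6 genes, 2 averaged 1 FPKM or more, and both were at least 1.5-fold lower (against 8.28% of mRNA genes), with a median of -0.68. Col4a1 (chr8:11198423-11312826, minus strand) was at 43.6 FPKM in WT against 25.9 FPKM in SRSF1-MKO, a ratio of 0.594 (0.571 to 0.619). Col4a2 (chr8:11312805-11449287, plus strand) was at 32.1 and 20.5 FPKM, a ratio of 0.638 (0.609 to 0.669). Their products form the type IV trimer found in nearly all basement membranes. The intervals of these head-to-head neighbours, which share the 22 first-exon bases shown above, overlapped between 0.609 and 0.619. The sources used here do not say whether reads were counted by strand, so reads from the shared bases could have gone to either gene. These bases are 0.295% of the exons of Col4a1 and 0.332% of those of Col4a2.

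The minor type IV chains are known from the basement membranes of kidney, lung and inner ear, and all 4 were below a mean of 1 FPKM here. Col4a5 was at 1.20 FPKM in WT against 0.591 FPKM in SRSF1-MKO, a ratio of 0.494 (0.376 to 0.645). Col4a4 was at 0.415 and 0.222 FPKM, a ratio of 0.535 (0.351 to 0.803). Col4a3 was at 0.376 and 0.539 FPKM, a ratio of 1.43 (1.05 to 1.96), the single type IV gene above its WT level. Col4a3 and Col4a4 lie head to head, 71 bases apart, and their intervals did not overlap, unlike those of Col4a1 and Col4a2. Another annotated transcript on the opposite strand shares 5.65% of the exons of Col4a3. Col4a6 had 6 reads in WT and 4 in SRSF1-MKO, too few to compare.

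The other collagens differed most among themselves. Of 27 genes, 14 averaged 1 FPKM or more. Of these, 3 (21.4%, against 8.28% of mRNA genes) were at least 1.5-fold lower, Col15a1, Col22a1 and Col6a6. In the other direction 1 was higher (7.14%, against 22.3%), Col8a1. The median of the 14 was -0.37, and 10 were below 0. Summed FPKM over the 27 genes was 152 in WT against 117 in SRSF1-MKO.

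Type VI collagen forms beaded filaments that link the basement membrane of muscle fibres to the surrounding matrix, and mutations in its main chains cause Ullrich and Bethlem muscle disease in people. Col6a1 (chr10:76708792-76726168, minus strand) was at 41.1 FPKM in WT against 33.8 FPKM in SRSF1-MKO, a ratio of 0.823 (0.784 to 0.864). Col6a2 was at 42.6 and 29.1 FPKM, a ratio of 0.683 (0.653 to 0.715). Col6a3 was at 13.2 and 9.75 FPKM, a ratio of 0.740 (0.701 to 0.781). These 3 chains of the common trimer were all lower and all within 1.5-fold. Type VI held 12.2% of collagen FPKM in WT against 15.1% in SRSF1-MKO.

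The chains Col6a4, Col6a5 and Col6a6, which can take the place of Col6a3 in the mouse, lie in a row on chromosome 9. Col6a6 was at 3.46 FPKM in WT against 1.80 FPKM in SRSF1-MKO, a ratio of 0.520 (0.449 to 0.602). Col6a5 was at 0.711 and 0.161 FPKM, a ratio of 0.227 (0.150 to 0.334) from 153 and 32 reads. Both had intervals entirely below that of Col6a3. Col6a4 had 0 reads in WT, which allows a level of up to 0.0174 FPKM at a floor of 3 reads, and 1 read in SRSF1-MKO.

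Multiplexins are collagens of basement membrane zones with many interruptions of the helix. Col15a1 (chr4:47208161-47313167, plus strand), whose loss in mice gives a mild muscle disease, was at 23.6 FPKM in WT against 9.98 FPKM in SRSF1-MKO. Its ratio was 0.423 (0.395 to 0.453) and its log2 difference -1.16, next to that of Col1a1. Col18a1, the source of the fragment endostatin, was at 3.02 and 1.88 FPKM, a ratio of 0.624 (0.534 to 0.726) that did not pass 1.5-fold on the log2(FPKM + 1) scale. Set against the type IV network of the same basement membranes, a comparison added with the values known, the ratio of Col15a1 to Col4a1 was 0.541 (0.518 to 0.565) in WT and 0.385 (0.360 to 0.411) in SRSF1-MKO.

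The FACIT group, fibril-associated collagens with interrupted helices, had 5 of 9 genes averaging 1 FPKM or more. Col22a1 (chr15:71795795-72034227, minus strand), a collagen of the myotendinous junction where muscle fibres meet tendon, was at 5.54 FPKM in WT against 2.16 FPKM in SRSF1-MKO, a ratio of 0.390 (0.340 to 0.447). Col14a1 and Col12a1, which coat fibrils in tendon and fascia, differed less. Col14a1 was at 4.47 and 3.68 FPKM, a ratio of 0.823 (0.732 to 0.925). Col12a1 was at 2.32 and 1.64 FPKM, a ratio of 0.706 (0.626 to 0.796). The interval of Col22a1 lay below those of both.

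Col16a1, which the table also places on a scaffold, was at 4.17 FPKM in WT against 2.59 FPKM in SRSF1-MKO, a ratio of 0.621 (0.536 to 0.719). Col20a1 was the FACIT gene with a higher level in SRSF1-MKO among those past the filter, at 1.03 FPKM in WT against 1.72 FPKM in SRSF1-MKO, a ratio of 1.66 (1.33 to 2.08). Below the filter, Col19a1 was at 0.252 and 1.13 FPKM, a ratio of 4.48 (3.17 to 6.52) on about 40 and 166 reads. The read numbers of Col19a1 rest on its annotated exon length, since no length giving whole reads in both libraries was found near it. Col9a1, Col9a2 and Col9a3, the chains of cartilage type IX collagen, had 4 to 7 reads each in WT and 9 to 20 in SRSF1-MKO.

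Col8a1 was the collagen gene past the filter whose interval lay above those of all the others. It encodes a short-chain collagen that forms hexagonal networks beneath endothelium and in vessel walls. Col8a1 (chr16:57624258-57754737, minus strand) was at 2.08 FPKM in WT against 11.3 FPKM in SRSF1-MKO, from 246 and 1234 reads. Its ratio was 5.44 (4.74 to 6.26) and its log2 difference 2.0. This remained the highest of the 24, at 1.68, with the median of rows at 5 FPKM or more set to 0. Its usual partner chain in such networks, Col8a2, was at 0.608 and 0.454 FPKM, a ratio of 0.746 (0.492 to 1.12). Col10a1, the short-chain collagen of growth plate cartilage, had 0 reads in WT and 3 in SRSF1-MKO, both at or under the floor of 3 reads.

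Col7a1 forms the anchoring fibrils beneath skin epithelium. It was at 1.36 FPKM in WT against 1.84 FPKM in SRSF1-MKO, a ratio of 1.36 (1.16 to 1.59). Col26a1, just inside the filter with a mean of 1.02 FPKM, was at 0.930 and 1.1 FPKM, and its interval of 0.833 to 1.69 included 1. Col28a1, below the filter, was at 0.436 and 0.538 FPKM with an interval of 0.832 to 1.83.

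The 4 transmembrane collagens, Col13a1, Col17a1, Col23a1 and Col25a1, were all below a mean of 1 FPKM. Col13a1, a collagen of the neuromuscular junction, was at 0.404 FPKM in WT against 0.365 FPKM in SRSF1-MKO, from 30 and 25 reads, and its interval of 0.509 to 1.59 included 1. Col25a1, which in mice is needed for motor axons to enter developing muscle, was at 0.0161 and 0.187 FPKM. Its ratio of 11.6 (3.62 to 59.0) rests on 3 reads in WT and 32 in SRSF1-MKO. Col23a1 was at 0.313 and 0.893 FPKM, a ratio of 2.86 (1.98 to 4.20). Col17a1, of the attachment plaques of skin, had 11 and 13 reads.

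The proportion between chains that share a trimer was compared for pairs in which both chains reached 1 FPKM in both libraries, which left out Col11a1 with Col11a2 and Col9a1 with Col9a2. The ratio of Col1a1 to Col1a2 was 2.04 (2.0 to 2.08) in WT and 1.83 (1.78 to 1.89) in SRSF1-MKO, where the common type I trimer holds a pair of Col1a1 chains for each Col1a2 chain. For Col4a1 to Col4a2 it was 1.36 (1.31 to 1.41) in WT and 1.27 (1.21 to 1.33) in SRSF1-MKO, with overlapping intervals. The ratio of Col5a1 to Col5a2 was 1.08 (1.02 to 1.15) in WT and 0.778 (0.724 to 0.835) in SRSF1-MKO, so the more abundant of the pair was Col5a1 in WT and Col5a2 in SRSF1-MKO. In type VI, Col6a1 to Col6a2 was 0.963 (0.922 to 1.005, which includes 1) in WT and 1.16 (1.1 to 1.22) in SRSF1-MKO. Col6a3 to Col6a1 was 0.321 (0.306 to 0.336) in WT and 0.288 (0.273 to 0.305) in SRSF1-MKO. For Col5a3 to Col5a1, added with the values known, the ratios were 0.724 (0.676 to 0.774) and 0.669 (0.612 to 0.730). These ratios are taken within a library and so do not depend on how the libraries are scaled, but they do depend on the gene lengths the authors used.

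**Figure D4:**
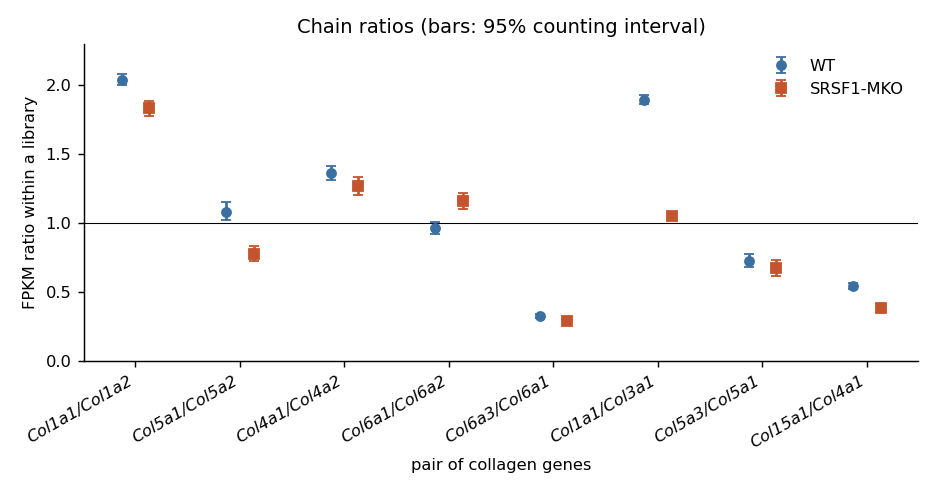
Ratio of FPKM between pairs of collagen genes within each library, WT as circles and SRSF1-MKO as squares, with exact 95% counting intervals as bars. The ratio of Col1a1 to Col3a1 moves most, from 1.90 to 1.05. The ratios of Col5a1 to Col5a2 and Col6a1 to Col6a2 cross the line at 1 in opposite directions, though the WT interval of the second pair includes 1.

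By class, fibrillar collagens held 72.2% of summed collagen FPKM in WT against 66.7% in SRSF1-MKO. Type IV held 9.40% and 9.66%, and the other collagens 18.4% and 23.6%. Without Col1a1, Col1a2 and Col3a1 the sum over the remaining 41 genes was 271 FPKM in WT against 193 FPKM in SRSF1-MKO, so the total was lower without the 3 most abundant genes too. As a description over 24 genes of the same libraries, the Spearman rho was -0.35 between the mean FPKM of both libraries and log2 difference. Between transcript length and log2 difference it was 0.06.

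Collagen chains are hydroxylated and folded in the endoplasmic reticulum before secretion, and 17 of 19 genes listed for these steps averaged 1 FPKM or more. Of these, 3 were at least 1.5-fold lower and 1 was higher, with a median of -0.07. These are 17.6% and 5.88%, against 8.28% and 22.3% of mRNA genes. With the median of rows at 5 FPKM or more set to 0, 7 of 17 were lower and 0 higher, with a median of -0.39. The share lower was then 41.2%, against 18.6% of mRNA genes. Serpinh1, the collagen chaperone HSP47, was at 47.2 FPKM in WT against 25.6 FPKM in SRSF1-MKO, a ratio of 0.542 (0.505 to 0.582). P4ha1, a catalytic subunit of prolyl 4-hydroxylase, was at 14 and 6.99 FPKM, a ratio of 0.499 (0.452 to 0.550), and its relative P4ha2 at 7.95 and 4.65 FPKM. P4hb, the shared subunit of that enzyme, was at 79.7 and 83.3 FPKM. Leprel1, a prolyl 3-hydroxylase, was the gene counted as higher, at 1.06 and 2.25 FPKM.

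Outside the cell, propeptides are removed and the chains are cross-linked. Of 8 genes listed for propeptide removal 4 passed the filter and 1 was lower (25%, against 8.28% of mRNA genes), Pcolce2, an enhancer of C-propeptide cleavage, at 2.89 FPKM in WT against 1.08 FPKM in SRSF1-MKO. The median of the 4 was -0.41. With the median of rows at 5 FPKM or more set to 0, all 4 were lower (against 18.6% of mRNA genes). Of 5 lysyl oxidases 4 passed the filter, with 0 lower (against 8.28% of mRNA genes), 0 higher (against 22.3%) and a median of -0.02. With 4 genes, counts of 0 do not set this list apart from those shares. Lox was at 5.36 and 5.09 FPKM, and Loxl2, with the largest difference of the list, at 12.1 and 8.31 FPKM.

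Small proteoglycans that bind collagen fibrils did not move together. All 9 passed the filter, 2 were lower (22.2%, against 8.28% of mRNA genes) and 3 higher (33.3%, against 22.3%), and the median was 0.24. Kera was at 10.9 FPKM in WT against 2.46 FPKM in SRSF1-MKO, a ratio of 0.226 (0.181 to 0.279), and Fmod at 25.3 and 10.3 FPKM, a ratio of 0.407 (0.370 to 0.446). Bgn was at 20.5 and 36.5 FPKM and Aspn at 7.98 and 15.8 FPKM, with Podn the third of the higher genes at 3.60 and 6.92 FPKM. Dcn, the most abundant of the list, was at 108 and 128 FPKM, below Col3a1 in WT (145 FPKM) and above it in SRSF1-MKO (115 FPKM).

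Of 14 genes listed for collagen breakdown and its inhibitors, 10 passed the filter, 1 was lower and 3 were higher, with a median of -0.12. These are 10% and 30.0%, near the 8.28% and 22.3% of mRNA genes. Timp1, an inhibitor of matrix metalloproteinases, was at 1.07 FPKM in WT against 17.9 FPKM in SRSF1-MKO, a ratio of 16.8 (10.9 to 27.2) from 22 and 341 reads. Timp4 was at 3.81 and 11.6 FPKM. Mmp14, a membrane-bound collagenase, was at 13.3 and 25.1 FPKM, while Mmp2 was at 10.8 and 10.6 FPKM. Mmp15 was the lower gene, at 3.72 and 1.52 FPKM.

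Among 9 collagen receptor genes, 4 passed the filter with a median of -0.16, and 1 was higher (25%, against 22.3% of mRNA genes). This was Itgb1, the beta subunit shared by many integrins, at 44.0 FPKM in WT against 74.5 FPKM in SRSF1-MKO. The other 3 were below 0. Itga1, next by size of difference, was at 3.03 and 1.72 FPKM, a ratio of 0.569 (0.506 to 0.640). Its log2 difference of -0.56 was not counted as lower. Of 13 genes listed for signals upstream of collagen transcription, 12 passed the filter, with a median of 0.17. Of these, 0 were lower (against 8.28% of mRNA genes) and 3 were higher. The 25% that were higher lie near the 22.3% of mRNA genes. Ctgf, a target of TGF-beta signalling, was at 12.8 and 37.4 FPKM, Smad3 at 8.45 and 14.9 FPKM and Tgfbr1 at 2.50 and 4.35 FPKM. The ligand gene Tgfb1 was at 1.65 and 1.86 FPKM. With the median of rows at 5 FPKM or more set to 0, 18.6% of mRNA genes were lower and 10.2% higher. The shares lower were then 33.3% for proteoglycans, 25% for lysyl oxidases and for receptors, 20% for breakdown and 0% for upstream signals. Higher were 2 of 10 breakdown genes, 1 of 12 upstream genes and 0 proteoglycan, lysyl oxidase or receptor genes.

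**Figure D5:**
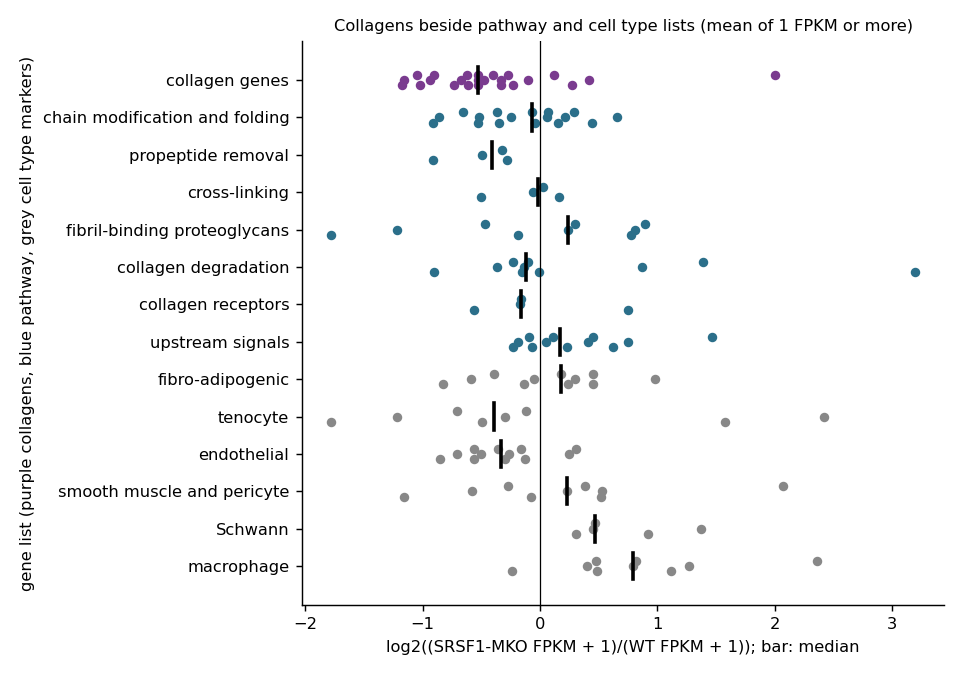
Log2 difference of each gene averaging 1 FPKM or more, by list, with the list median as a black bar; collagen genes are purple, pathway lists blue and cell type marker lists grey. The collagen median of -0.53 is the lowest of the lists shown, and the macrophage median of 0.79 the highest. The muscle fibre and satellite cell lists, with medians of -0.51 and 0.03, are not shown.

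The tissue label was checked against 10 muscle fibre genes, all of which were expressed, with a summed level of 77328 FPKM in WT against 43317 FPKM in SRSF1-MKO. Of these, 4 were lower (Ckm, Pygm, Tnnt3 and Myh4) and 2 higher (Des and Myh1), with a median of -0.51, close to the collagen median of -0.53. The largest part of the difference between the sums was that of Myh4, at 28777 FPKM in WT against 7176 FPKM in SRSF1-MKO. Myh1 went the other way, at 1176 and 4028 FPKM. Markers of the cells that make collagen were measured beside the collagen genes. Of 12 fibro-adipogenic genes 11 passed the filter, 2 were lower (Cd34 and Cd248) and 1 higher (Mfap5), with a median of 0.18. Their sum was 318 FPKM in WT against 332 FPKM in SRSF1-MKO. Dcn, at 108 and 128 FPKM, differed by more than the sum did, so the remaining genes together were slightly lower in SRSF1-MKO. With the median of rows at 5 FPKM or more set to 0, the list median was -0.14. Of 10 tenocyte genes 8 passed, 3 were lower (Fmod, Kera and Tnmd) and 2 higher (Scx and Thbs4), with a median of -0.39 and 6 of 8 below 0. Their sums were 105 and 152 FPKM, and 70.5 and 46.3 FPKM without Thbs4, which was at 34.6 and 105 FPKM. Of 12 endothelial genes all passed, 2 were lower (Kdr and Cdh5) and 0 higher, with sums of 102 and 76.7 FPKM and a median of -0.33. Smooth muscle and pericyte genes had sums of 126 and 105 FPKM, with 9 of 10 past the filter, 1 lower (Abcc9) and 1 higher (Lmod1). Schwann cell genes had sums of 38.3 and 76.5 FPKM, with 2 of 5 higher and 0 lower, and macrophage genes 30.3 and 57.5 FPKM, with 5 of 9 higher and 0 lower. Satellite cell genes had sums of 8.01 and 8.29 FPKM, with 2 of 5 past the filter and neither lower nor higher. Among mRNA genes, 8.28% were lower and 22.3% higher. The shares lower were 40.0% for muscle fibre, 37.5% for tenocyte, 18.2% for fibro-adipogenic, 16.7% for endothelial and 11.1% for smooth muscle and pericyte genes. The shares higher were 55.6% for macrophage, 40.0% for Schwann, 20.0% for muscle fibre, 11.1% for smooth muscle and pericyte and 9.09% for fibro-adipogenic genes. The 2 of 8 tenocyte genes that were higher lie near the mRNA share. With the median of rows at 5 FPKM or more set to 0, 18.6% of mRNA genes were lower and 10.2% higher. The shares lower were then 70.0% for muscle fibre, 62.5% for tenocyte and 58.3% for endothelial genes. They were 33.3% for smooth muscle and pericyte, 27.3% for fibro-adipogenic and 0% for Schwann, macrophage and satellite cell genes. Higher were 2 muscle fibre, 1 fibro-adipogenic, 2 tenocyte, 1 smooth muscle and pericyte, 2 Schwann and 3 macrophage genes. No marker of these lists was at 0 in either library. The part of cell composition in the collagen differences was not tested.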

How the data were processed

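Per the labels' protocols, RNA came from Trizol extraction and sequencing libraries from a Lifetech protocol. The authors deposited 1 table of FPKM, with exact zeros kept and no log taken, as its values show. The submitters' processing notes name Bowtie and mm10; the sources used here do not give the aligner version, annotation, strandedness or counting method. In the table, 1 line had been emptied and is not analysed here; every per-sample column was used.

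The collagen genes, the gene lists, the counting rules and the sequences shown were chosen with earlier results of these data known. All collagen genes of the rule are accounted for, those under a mean of 1 FPKM more briefly. From each pathway list, genes were named by the size of their log2 difference (up to 4 per list); Podn, P4hb, Lox, Dcn, Mmp2 and Tgfb1 were added after their values were seen. Lists held 7 genes under an older symbol, such as Ctgf for Ccn2 and Leprel1 for P3h2, matched through RefSeq synonyms.

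Whole reads leave steps in FPKM: among 19044 genes detected in both libraries, the ratio of FPKM divided by a constant of 1.08 was a fraction of whole numbers in 92.8%, with denominators up to 3000 and a relative tolerance of 1e-12. From this followed library totals of 23146640 reads for WT, which 643 genes gave, and 21350284 for SRSF1-MKO, and per gene the length that gives whole reads in both. Such a length was used for 43 collagen genes and the exon length of GENCODE M21 (GRCm38) for Col19a1. The reads so computed sum over mRNA genes to 23307537 in WT and 19317597 in SRSF1-MKO; the first sum exceeds its total, so read numbers are approximate. Reads served for intervals only, and no count test was run, since each group holds 1 library. Scripts used Python 3.11.15 with pandas 2.3.3, NumPy 2.4.6, SciPy 1.17.1 and matplotlib 3.10.9, and were tested on simulated data. Alternatives were another pseudocount, other filters, other scalings, 2-fold, and another class for the multiplexins. Coordinates of genes are those of GENCODE on GRCm38, the assembly that mm10 names.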

Additional observations from a re-analysis of the deposited data

How the results depend on the processing

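The lower medians of the fibrillar and type IV collagens kept their direction under every alternative run, and that of the other collagens under all but 1. Against 10 lower and 1 higher as reported, a pseudocount of 0.1 FPKM gave 12 and 2, no filter on level 11 and 2 of 44, and a mean of 5 FPKM or more 6 and 1 of 13. Setting the median of rows at 5 FPKM or more to 0 gave 18 and 1, and 2-fold 4 and 1. Dividing each column by its sum gave 20 and 3, but over 30 genes, since more pass the filter on that scale; over the same 24 genes, a choice made after seeing the data, it gave 18 and 1, with medians of -1.13 (fibrillar), -1.0 (type IV) and -0.68 (other). Dividing each column by the sum of its mRNA rows, chosen after seeing the data, gave 8 and 1. Shares of all mRNA genes were not computed for the changed pseudocount, the changed filters or the scaling by mRNA rows. The counts under those settings therefore cannot be set against a background. Fibrillar medians (-0.76 as reported) were -0.61 without a filter and -0.57 at a mean of 5 or more. They were -1.08 with the median of rows at 5 FPKM or more at 0 and -1.11 on the column sum. Type IV medians (-0.68) were -0.34 without a filter, -1.0 and -0.94 on those scalings. Medians of the other collagens (-0.37) were 0.01 without a filter, a change of sign that comes with the 13 genes of low level it adds, and -0.69 and -0.59 on those scalings. Of the 24 genes taken singly, 8 more passed 1.5-fold with the median of rows at 5 FPKM or more at 0. Col7a1 and Col26a1 then went from above to below 0. No paired analysis was possible because each group holds 1 library, and leaving out a library was not possible either. Genes with few reads, such as Col4a6, Col9a1 and Col25a1, are limited by depth.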

Other observations

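Collagen genes that neighbour each other in the genome were set side by side. On the X chromosome, Col4a6 and Col4a5 lie head to head with 1308 bases between them, and they differed in level, with Col4a5 at 1.20 FPKM in WT and Col4a6 at 0.0390 FPKM. On chromosome 10, Col6a2 and Col6a1 lie 85161 bases apart on the same strand and had log2 differences of -0.53 and -0.27. On chromosome 1, Col9a1 and Col19a1 lie tail to tail with 9205 bases between them. Col19a1 had the larger log2 difference, 0.76 against 0.06, on about 40 and 166 reads. Exons of 1 further collagen gene overlap another gene by more than 6% of their length: Col9a3 shares 6.07% with Tcfl5 on the opposite strand.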
